A study of Mus musculus with 26 samples.

Results

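Mammary luminal-basal cells lacking Snai2 were compared at 12 and 3 months of age. They are a fraction of the gland sorted by fluorescence on the surface proteins EpCAM and CD49f, and 4 of the 26 RNA sequencing libraries of the series were used for it. The 3-month libraries came from the pools F82 and F84, and the 12-month libraries from the pools A6 and A5, each pool holding cells of 3 mice. All 4 pools were B6.129S1 mice with the genotype Snai2-LacZ/LacZ, called null here. The labels name no Cre driver, and they do not say which part of Snai2 the LacZ allele removes, so the loss is read as one of the whole animal, stroma included. The A5 library was chosen by its expression and against its label. The A5 library labelled stromal carried the basal keratin gene Krt14 at 1025 CPM (scaled counts per 1000000) and the collagen gene Col1a1 at 23.92 CPM. In the A5 library labelled luminal-basal Krt14 read 34.8 CPM and Col1a1 1218 CPM. Their labels were therefore treated as exchanged, the main results are also given with A6 as the only 12-month library, and Krt14 and Col1a1 are described with no test. The reference groups were null luminal cells of the same 4 pools and wild-type basal cells of the pools F79 and F81 at 3 months and A1 and A2 at 12 months. The main p-values came from a fit over all 26 libraries of the series. They measure the spread between libraries within groups across the series, not that of these 4 pools alone. In that fit the fractions sorted from the same pool counted as separate libraries. Age cannot be told apart from any difference in when the 3- and 12-month pools were collected or processed.

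The mammary ductal epithelium has an inner luminal layer, marked by Krt8 and Krt18, and an outer basal or myoepithelial layer, marked by Krt5, Krt14, Trp63 and contractile proteins. Snai2, also called Slug, is a zinc finger repressor of the Snail family that binds E-box sequences and is made mainly by basal cells in this tissue. In other settings it represses epithelial genes during epithelial-mesenchymal transition. Luminal-basal is the submitters' name for the null fraction, and only null mice have libraries with that name.

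Total counts of the 4 libraries ranged from 5370328 to 9606607, against 2951035 to 16649904 over the series. Genes detected numbered 18529 in F82, 18020 in F84 and 18080 in the A5 library labelled stromal, but 14756 in A6. F82 and A6 stood apart: 128 genes reached at least 10 CPM and were over 8-fold above the highest of the other libraries in F82, 66 did so in A6, 3 in F84 and 0 in the A5 library. Across genes, log2 CPM of the A5 library labelled stromal correlated at 0.922 with the 3-month luminal-basal libraries and at 0.763 with null 3-month stroma. The A5 library labelled luminal-basal gave 0.868 and 0.911. A6 gave 0.873 and 0.726, so its first value lay close to that of the A5 library labelled luminal-basal. With null 3-month stroma F82 gave 0.853 and F84 0.771. Genes are not independent replicates and all these libraries share abundant transcripts, so the coefficients are descriptions.

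Snai2 itself (ENSMUSG00000022676, GRCm38 chromosome 16, 14705852 to 14709385, plus strand) was read first because it checks the genotype. It had 44 counts (5.76 CPM) in F82, 0 in F84, 0 in A6 and 0 in the A5 library labelled stromal. Wild-type basal libraries held 192 to 597 counts of Snai2, or 35.76 to 58.7 CPM. F82 luminal cells had 0 counts and F82 stroma 4 counts, so the counts of the F82 pool lay almost wholly in its luminal-basal library. F82 therefore stands below for the library labelled as null luminal-basal of that pool, and the main results are also given without it. Snai1, another member of the Snail family, stood at 7.99 and 2.26 CPM at 3 months and at 2.11 (A6) and 5.46 CPM (A5) at 12 months, and the ages overlapped.

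The markers of the basal layer were present in all 4 libraries at both ages. Krt14 (ENSMUSG00000045545) stood at 517.4 CPM in F82, 1155 in F84, 718.6 in A6 and 1025 in the A5 library labelled stromal. Krt5, its partner keratin, stood at 656.8, 1638, 1918 and 1411 CPM in the same order, a log2 difference of 0.54 ± 0.997 (SE, 2 pools per age, adjusted p = 0.9198). Here and below a log2 difference is 12 minus 3 months from edgeR's quasi-likelihood fit, and the p is adjusted by Benjamini-Hochberg over the 15917 genes tested. That fit held all 26 libraries, so its SE and p also draw on the spread within the other groups. The lowest Krt5 level was in F82 and the other 3 lay within a narrow range, so the ages overlapped.

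Trp63, the p63 transcription factor of basal cells, stood at 417.7 and 181.1 CPM at 3 months and at 577.3 (A6) and 395.5 CPM (A5) at 12 months, with an adjusted p of 0.8652. Acta2, smooth muscle actin, read 1231 and 2175 CPM at 3 months and 1661 (A6) and 3177 CPM (A5) at 12 months, with an adjusted p of 0.8371. Both genes overlapped between ages. Epcam, the surface protein used in the sort, overlapped between ages, at 650.6 and 884.6 against 712.7 and 676.9 CPM, a log2 difference of -0.14 ± 0.393. Krt8, the luminal keratin, stood at 98.38 (F82), 297.2 (F84), 77.73 (A6) and 80.74 CPM (A5), with both 12-month libraries below both 3-month ones and an adjusted p of 0.5067. Its partner Krt18 read 101.4, 179.6, 108.6 and 78.49 CPM in that order. In null luminal cells of the same pools Krt14 was 36.96 to 49.24 CPM and Krt8 347.1 to 1466 CPM, so all 4 libraries had more Krt14 and less Krt8 than any of these, with F84 nearest to them in Krt8. For the A5 library the Krt14 level was the ground of its choice. In wild-type basal libraries Krt14 ranged from 307.6 to 734.4 CPM and Krt8 from 67.5 to 181.9 CPM. The 12-month null libraries labelled basal, of the pools A5 and A6, had Krt14 at only 10.47 and 27.91 CPM and Col1a1 at 243.7 and 262.2 CPM.

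**Figure D1:**
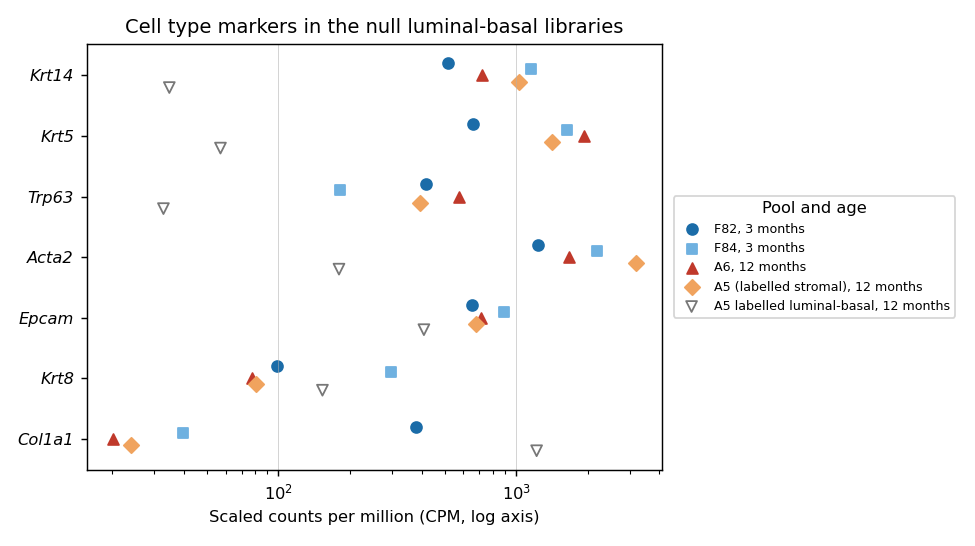
Levels of 7 cell type markers (CPM, log axis) in the 4 null luminal-basal libraries and, as open triangles, in the A5 library that carries the luminal-basal label. The A5 library labelled stromal lies with the other 3 for Krt14, while the open triangles lie far lower at 34.8 CPM for Krt14 and higher at 1218 CPM for Col1a1; F82 has 379.7 CPM of Col1a1.

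Among the 15 basal keratin and adhesion genes tested, 0 were called at an adjusted p under 0.05, 2 were higher in both 12-month libraries than in both 3-month ones and 0 were lower in both. Over all genes tested, 11.2% lay wholly higher and 14.6% wholly lower by that measure. Integrin genes that anchor basal cells to the basement membrane overlapped between ages: Itga6 stood at 559.2, 881.2, 789.6 and 945.7 CPM, and Itgb4 at 161.9, 276.7, 223.4 and 301.6 CPM (F82, F84, A6, A5, the order used from here on). The median log2 difference of the list was 0.26, against -0.08 for all genes. The 2 wholly higher genes were Dsc3, a desmosomal cadherin at 31.44, 47.69, 328 and 51.04 CPM, and Jag2, a Notch ligand at 35.37, 43.51, 61.23 and 65.17 CPM. Dsc3 was high in A6 alone.

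Of the 12 contractile genes of myoepithelium tested, 5 lay wholly higher at 12 months, 1 wholly lower and 0 were called, with a median log2 difference of 0.46. Myh11, smooth muscle myosin, read 1521, 1898, 2427 and 3300 CPM, a log2 difference of 0.74 ± 0.477 (adjusted p = 0.6719). Mylk, the myosin light chain kinase, read 656.9, 767.7, 1243 and 1211 CPM (adjusted p = 0.6588). Both 12-month libraries exceeded both 3-month ones for these genes. With A6 as the only 12-month library the median was 0.06, against -0.38 for all genes in that fit. Without F82 it was 0.07, against 0 for all genes, and over 4 libraries all genes had -0.08.

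The luminal epithelial list went the other way in its counts, with 0 of 13 tested genes wholly higher, 5 wholly lower and 0 called, and a median log2 difference of -0.59. With A6 as the only 12-month library its median was -0.44, close to the -0.38 of all genes in that fit. Without F82 it was -0.97. In null luminal cells of the same pools the list had a median of -0.65, against 0.04 for all genes, so a lower level was not particular to the luminal-basal fraction. Krt7, a simple-epithelial keratin, stood at 11.53, 21.02, 2.3 and 4.82 CPM, a log2 difference of -2.17 ± 0.652 (adjusted p = 0.1974). Krt19 stood at 144.2, 160, 78.89 and 85.39 CPM (adjusted p = 0.6232). In these libraries both 12-month values were below both 3-month values. Cdh1, the E-cadherin gene, overlapped at 396, 706.8, 558 and 397.3 CPM. In a bulk library a lower share of luminal cells and less of these transcripts per cell cannot be told apart, which holds for every gene group described here.

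Krt24 (ENSMUSG00000020913, chromosome 11, 99279959 to 99285262, minus strand), a type I keratin, had 501 counts in A6 (96.16 CPM), 2 in F82, 0 in F84 and 0 in the A5 library labelled stromal. It was thus present at 12 months in A6 alone. Elsewhere in the series it had 11 counts in A6 luminal cells, 1 in A6 stroma, 11 in wild-type basal cells of the 3-month pool F81 and 0 in every other library. The fitted difference over 4 libraries was not called (adjusted p = 0.4235), and with A6 as the only 12-month library it was, at 9.31 ± 1.801 on the log2 scale (adjusted p = 0.0421), a fit in which 1 library stands for the age.

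Krt24 did not stand alone in A6. A list of 30 genes of epidermal differentiation, chosen after these values were seen and so given no test, had 18 members that were highest in A6 of the 4 libraries and 15 that were highest in A6 of all 26. Krt1 and Krt10, the keratin pair of suprabasal epidermis, stood at 5.76 (F82), 2.6 (F84), 239.5 (A6) and 0 CPM (A5) and at 2.62, 10.28, 282 and 0.642 CPM. Krt77, another type II keratin, read 0.917, 4.97, 224.9 and 0 CPM. The epidermal desmoglein Dsg1a read 0.655, 3.05, 68.33 and 0 CPM. For each of these genes A6 exceeded the other 3 libraries, and the A5 library of the same age was the lowest. Their levels in A6 luminal cells were between: 24.87 CPM for Krt1, 87.44 for Krt10, 85.71 for Krt77 and 18.75 for Dsg1a. The list summed to 1383 CPM in A6 luminal-basal cells, 426.7 in A6 luminal cells, 265 in A6 cells labelled basal and 85.58 in A6 stroma, against 90.41, 63.53 and 56.66 CPM in the luminal-basal libraries of F84, F82 and A5. Wild-type luminal cells at 12 months summed to 338.6 (A1) and 254.7 CPM (A2). Sums near those of A6 luminal cells and A6 cells labelled basal thus also occurred outside the A6 pool. Sprr1a, a cornified envelope precursor, made up 215.8 CPM of the A2 sum. For Krt1, Krt10, Krt77 and Dsg1a the highest level outside A6 luminal-basal cells was in A6 luminal cells. Members of late differentiation were mixed in A6. Lor, Flg, Ivl and Krt2 had 0 counts there, but no library of the series held more than 0.894 CPM of any of them. Sprr1a read 4.72, 21.25, 108.3 and 0.642 CPM, and Casp14 0.262, 0.452, 15.74 and 1.28 CPM. Tgm1, another member of the list, was lowest in A6 of the 4 libraries, at 29.87, 18.76, 14.4 and 44.62 CPM. Csn2, the beta-casein gene of milk, was also highest in A6, at 77.02, 174.8, 1196 and 9.79 CPM. The part of these genes in the values of A6 was not tested.

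**Figure D2:**
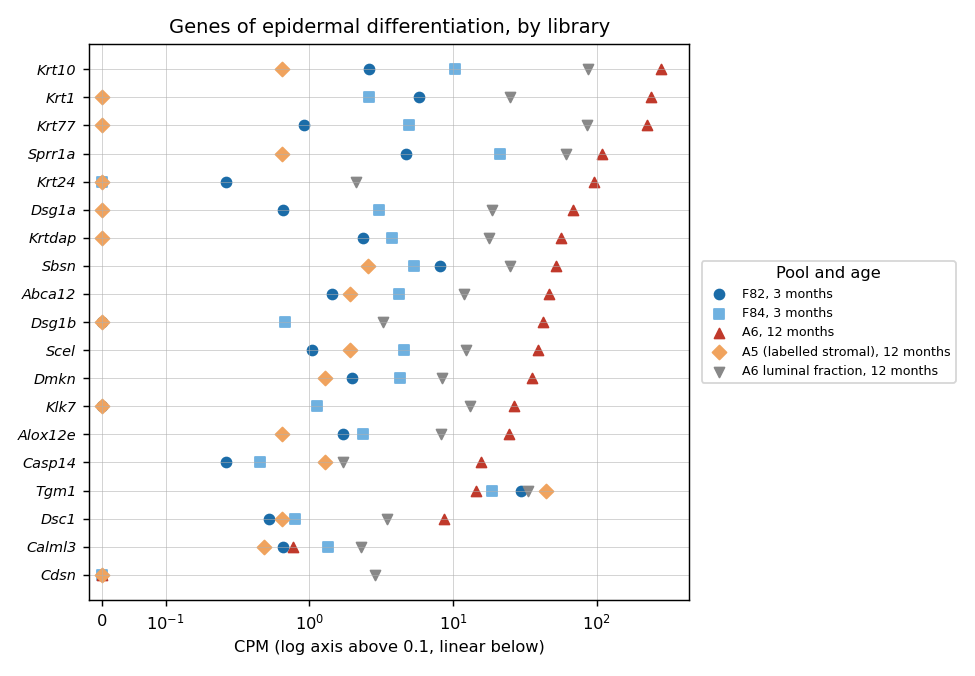
CPM (log axis above 0.1, linear below) of 19 genes of epidermal differentiation in the 4 null luminal-basal libraries and in luminal cells of the A6 pool. The listed genes left out were scarce in all of these libraries, A6 luminal-basal included. The A6 luminal-basal library is far to the right for most genes, for example 282 CPM for Krt10, while the other 12-month library read 0.642 CPM.

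Comparing 12 with 3 months over the 4 libraries, 28 genes passed the threshold, all lower at 12 months (0.176% of the genes tested, with Col1a1, which the choice of library used, among them), and 0 passed it higher (0%). At an unadjusted p under 0.05, 985 genes were lower and 562 higher, and DESeq2 called 227 lower and 62 higher, with all 28 among its calls. Choosing between the A5 libraries used genes of the same kind, since 27 of the 28 were at least 4-fold higher in the A5 library labelled luminal-basal than in the one labelled stromal, so the count is a description. The fit with A6 as the only 12-month library does not use the exchange. It called 161 lower genes (0.934%) and 90 higher (0.522%), 14 of the 28 among them. In that fit the median log2 difference of all genes was -0.38, against -0.08 over 4 libraries. Without F82 edgeR called 0 genes (0% of 17272 tested, 1561 at an unadjusted p under 0.05). Without A6 0 genes were called (1066 at an unadjusted p under 0.05), without F84 332 and without the A5 library labelled stromal 370, of which 28 and 20 were among the 28.

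In wild-type glands 26 of them were at least 4-fold higher in stroma than in epithelium, which held for 7.08% of all genes tested. The A5 library was chosen in part for its low Col1a1, a gene among the 26. That choice favours stromal genes being low at 12 months, so this share is a description only. The 28 formed 2 sets by their 3-month libraries: in 19 the level in F82 was over 2-fold that in F84, and in 9 the F82 level was within 2-fold of the F84 level. This split was made after the values were seen.

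The 19 genes encode extracellular matrix and surface proteins of mesenchymal cells, secreted factors and some enzymes and transporters. Col3a1 (ENSMUSG00000026043, chromosome 1, 45311538 to 45349706, plus strand), the fibrillar type III collagen, stood at 569.8 CPM in F82, 56.28 in F84, 24.57 in A6 and 21.03 in the A5 library labelled stromal. F82 was far above the other 3, and F84 was over 2-fold above both 12-month libraries. The log2 difference was -3.78 ± 0.670 (adjusted p = 0.0359), and without F82 it was -1.35 (adjusted p = 0.2372). Thbs2 (ENSMUSG00000023885, chromosome 17, 14665500 to 14694235, minus strand), which encodes the matricellular protein thrombospondin 2, stood at 82.26, 7.57, 0.768 and 2.09 CPM. Its log2 difference was -4.92 ± 0.845 (adjusted p = 0.0339), -5.89 with A6 alone (adjusted p = 0.0428) and -2.39 without F82 (adjusted p = 0.1581). Svep1 (ENSMUSG00000028369, chromosome 4, 58042442 to 58206859, minus strand), a large secreted adhesion protein, stood at 30.91, 4.75, 1.15 and 0.963 CPM. Its log2 difference was -4.05 ± 0.651 (adjusted p = 0.0254) and -3.98 with A6 alone (adjusted p = 0.0398). Both Thbs2 and Svep1 thus had the same steps, F82 highest, F84 next and both 12-month libraries lowest.

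Genes that move together may share letters in their promoters, and Snai2 binds E-boxes, so the promoters of the 4 genes of smallest p among the 10 largest falls are shown. Each runs from 250 bases before to 50 bases after the RefSeq start, 5′ to 3′ on the gene's strand (GRCm38.p6), with every E-box (CANNTG on either strand, which includes CAGGTG) in capitals.
Svep1, chr4:58206547-58206846, minus strand: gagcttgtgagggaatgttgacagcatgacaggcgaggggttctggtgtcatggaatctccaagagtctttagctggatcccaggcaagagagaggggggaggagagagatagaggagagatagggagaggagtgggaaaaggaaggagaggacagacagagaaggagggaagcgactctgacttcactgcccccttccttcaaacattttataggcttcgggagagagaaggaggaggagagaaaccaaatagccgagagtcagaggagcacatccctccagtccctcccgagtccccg
Thbs2, chr17:14694213-14694512, minus strand: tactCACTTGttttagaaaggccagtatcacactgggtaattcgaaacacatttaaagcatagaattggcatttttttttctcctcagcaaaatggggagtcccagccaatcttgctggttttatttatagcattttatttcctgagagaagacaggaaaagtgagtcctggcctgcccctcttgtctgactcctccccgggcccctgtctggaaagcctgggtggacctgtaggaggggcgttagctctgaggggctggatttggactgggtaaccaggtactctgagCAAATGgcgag
Col3a1, chr1:45311288-45311587, plus strand: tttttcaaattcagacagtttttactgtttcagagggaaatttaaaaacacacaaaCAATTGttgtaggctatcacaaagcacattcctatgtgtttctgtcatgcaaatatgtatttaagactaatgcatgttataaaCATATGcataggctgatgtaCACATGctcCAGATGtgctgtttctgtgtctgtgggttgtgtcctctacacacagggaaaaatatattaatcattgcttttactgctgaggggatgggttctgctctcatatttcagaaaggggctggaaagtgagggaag
Srpx, chrX:10117591-10117890, minus strand: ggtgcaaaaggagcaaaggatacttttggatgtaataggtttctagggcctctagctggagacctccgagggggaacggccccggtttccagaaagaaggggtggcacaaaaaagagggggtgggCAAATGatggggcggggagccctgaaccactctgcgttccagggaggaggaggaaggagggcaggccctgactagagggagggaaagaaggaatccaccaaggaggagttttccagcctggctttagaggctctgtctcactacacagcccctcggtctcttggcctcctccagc
The Svep1 window held 0 E-boxes, that of Srpx 1, that of Thbs2 2 and that of Col3a1 4. Of the 28 genes, 16 were in the promoter table, and 11 of these had an E-box in their first listed promoter, against 72.3% of all 32851 promoters of that length. The Snail-type E-box CAGGTG was in 1 of 16 (Frem1) against 20.2% of all, and the AP-1 motif TGANTCA, searched on both strands, in 0 of 16 first promoters (and in another promoter of Vash2) against 7.81% of all. A match is a description of letters, not a binding site.

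Apod, the lipid-binding apolipoprotein D, stood at 127.3, 7.23, 1.92 and 1.45 CPM, a log2 difference of -5.31 ± 0.960 (adjusted p = 0.0391), and was not called with A6 alone (adjusted p = 0.0765) or without F82 (-2.15, adjusted p = 0.1815). Enpp2, which encodes autotaxin, the secreted enzyme that makes lysophosphatidic acid, stood at 50.56, 4.86, 1.15 and 1.61 CPM. The adhesion receptor Adgrd1 stood at 72.96, 5.09, 0.576 and 1.61 CPM, and without F82 its log2 difference went from -5.09 to -2.20 (adjusted p = 0.2793). Each of these was highest in F82 by more than 10-fold over F84, with low levels in both 12-month libraries. Nid1, a basement membrane linker, was at 429.3, 37.52, 11.9 and 24.4 CPM, and without F82 its log2 difference went from -3.68 to -1.08 (adjusted p = 0.4062). Opcml, a membrane-anchored adhesion protein, was at 32.88, 0.791, 0.192 and 0.321 CPM, and without F82 its log2 difference went from -5.89 to -1.56 (adjusted p = 0.6174). The ratio of summed 3- to 12-month counts of Opcml was 59.69 (exact binomial 95% interval 20.2 to 291.3, counting error only). Srpx, a sushi-repeat protein, stood at 17.68, 2.94, 0.192 and 0.321 CPM. Abca6, a lipid transporter, stood at 20.57, 1.7, 0.192 and 0.803 CPM. Col1a1, which the choice of library used, read 379.7, 39.89, 20.15 and 23.92 CPM.

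The remaining members of the 19 ran from the cross-linking enzyme Loxl2 (31.57, 6.67, 1.73 and 2.57 CPM) to Frem1, an epithelial-matrix protein with 51 counts at 3 months and 0 in both 12-month libraries. Against a floor of 3 counts over the 12-month group, Frem1 was at least 11.8-fold lower at 12 months. Thy1, the surface glycoprotein CD90 of fibroblasts, read 72.44, 9.61, 4.61 and 2.57 CPM. Of these 19 genes 5 were also called with A6 alone: Thbs2, Svep1, Sgce, Adh1 and Ssc5d. Sgce encodes a sarcoglycan of the cell membrane and read 17.42, 2.03, 0.192 and 0.321 CPM, and Adh1, an alcohol dehydrogenase, read 13.75, 1.92, 0 and 0.482 CPM.

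The level of the 19 genes was set beside the stroma of the same pools. Their median F82 to F84 ratio was 8.56 (range 2.13 to 41.56). In the library labelled F82 luminal-basal their median level was 13.35% of that in F82 stroma (range 5.55 to 24.51%), and in F84 it was 1.64% of F84 stroma (0.518 to 4.92%). The level of the 12 fibroblast markers is set beside them: their mean log2 CPM was 6.37 in F82, 3.34 in F84, 2.54 in A6 and 3.03 in the A5 library labelled stromal. Their summed level was 1997 CPM in F82, 704 in F84, 511.5 in A6 and 904.2 in A5, and 5104 CPM in the A5 library labelled luminal-basal. No fibroblast gene was called over the 4 libraries, 6 of 12 lay wholly lower and 0 wholly higher. With A6 alone 1 was called lower, Fbln1, a secreted matrix protein at 33.14, 11.98, 0.192 and 13.64 CPM (adjusted p = 0.0211). Dpt, the matrix protein dermatopontin, read 333.5, 13.22, 9.41 and 5.46 CPM (adjusted p = 0.0725), and Gsn, gelsolin, 459.8, 50.18, 31.29 and 44.3 CPM (adjusted p = 0.0732). Col14a1, a collagen of the same list, did not follow, with 480.7, 488.7, 339.5 and 741.2 CPM. It made up most of the summed level in F84, A6 and A5 but not in F82, so the order of those sums rests largely on it. The median log2 difference of the list was -2.85, and it was -0.56 without F82. The part of stromal cells in the 19 calls was not tested.

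The other 9 called genes were high in both 3-month libraries and low in both 12-month ones. This follows from the calls and from the split on the F82 to F84 ratio, so it is a description. Dact1 (ENSMUSG00000044548, chromosome 12, 71309884 to 71320107, plus strand), which binds Dishevelled and tunes Wnt signalling, stood at 27.38 CPM in F82, 15.48 in F84, 3.46 in A6 and 2.41 in the A5 library labelled stromal. Its log2 difference was -2.87 ± 0.428 (adjusted p = 0.0133), the smallest p of the 28, and -2.69 with A6 alone (adjusted p = 0.0286). Without F82 it was -2.45 (adjusted p = 0.0726). Dlc1 (ENSMUSG00000031523, chromosome 8, 36567751 to 36953143, minus strand), a GTPase-activating protein that switches off RhoA, stood at 89.08, 52.33, 12.09 and 11.08 CPM, a log2 difference of -2.61 ± 0.439 (adjusted p = 0.0265). The log2 difference of Dlc1 was -2.61 with A6 alone and -2.22 without F82. For both genes the lower 3-month library was over 4-fold above the higher 12-month one.

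Among the signalling genes of the 9, Tgfbr2 (ENSMUSG00000032440, chromosome 9, 116084293 to 116175360, minus strand), the type II receptor for TGF-beta, stood at 140.2, 92.9, 44.72 and 46.23 CPM. Its log2 difference of -1.36 ± 0.247 (adjusted p = 0.0329) was -1.45 with A6 alone and -1.075 without F82. Nbl1, a secreted antagonist of bone morphogenetic proteins, stood at 37.2, 24.75, 6.14 and 8.99 CPM. Pde3a, a cyclic nucleotide phosphodiesterase, stood at 31.05, 17.74, 2.88 and 5.3 CPM. In these 3 genes both 12-month libraries were below both 3-month ones, and the log2 differences of Nbl1 (-2.03 ± 0.366) and Pde3a (-2.56 ± 0.508) were larger than that of Tgfbr2. Nav1, a microtubule-binding protein, stood at 101.7, 77.42, 12.67 and 32.1 CPM, with the lower value in A6. Rftn1, a lipid raft protein, was scarce, at 5.24, 3.28, 0.192 and 0.642 CPM.

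Vash2 (ENSMUSG00000037568, chromosome 1, 190947646 to 190979296, minus strand), a tubulin carboxypeptidase of the vasohibin family, differed from the rest in its level relative to the stroma of its own pools. It stood at 14.67, 8.93, 0.576 and 1.28 CPM, a log2 difference of -3.62 ± 0.750 (adjusted p = 0.0484). With A6 alone the log2 difference was -4.37, and without F82 it was -3.25. Its wild-type difference of stroma minus epithelium was 0.29 on the log2 scale, and null stroma held 4.12 (F82), 7.11 (F84) and 2.83 CPM (A6), so both 3-month luminal-basal libraries exceeded the stroma of their own pools. Wild-type basal cells held 6.96 to 11.01 CPM and null luminal cells 0.765 to 2.68 CPM. Rftn1 also had a small wild-type difference of stroma minus epithelium, 1.04. Its levels were 21.74% of the stroma of the same pool in F82 and 35.87% in F84. The 9 genes had a median level of 25.42% of their pool's stroma in F82 and of 23.16% in F84. The 2 sets were split on the F82 to F84 ratio, so nothing is read from these shares.

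**Figure D3:**
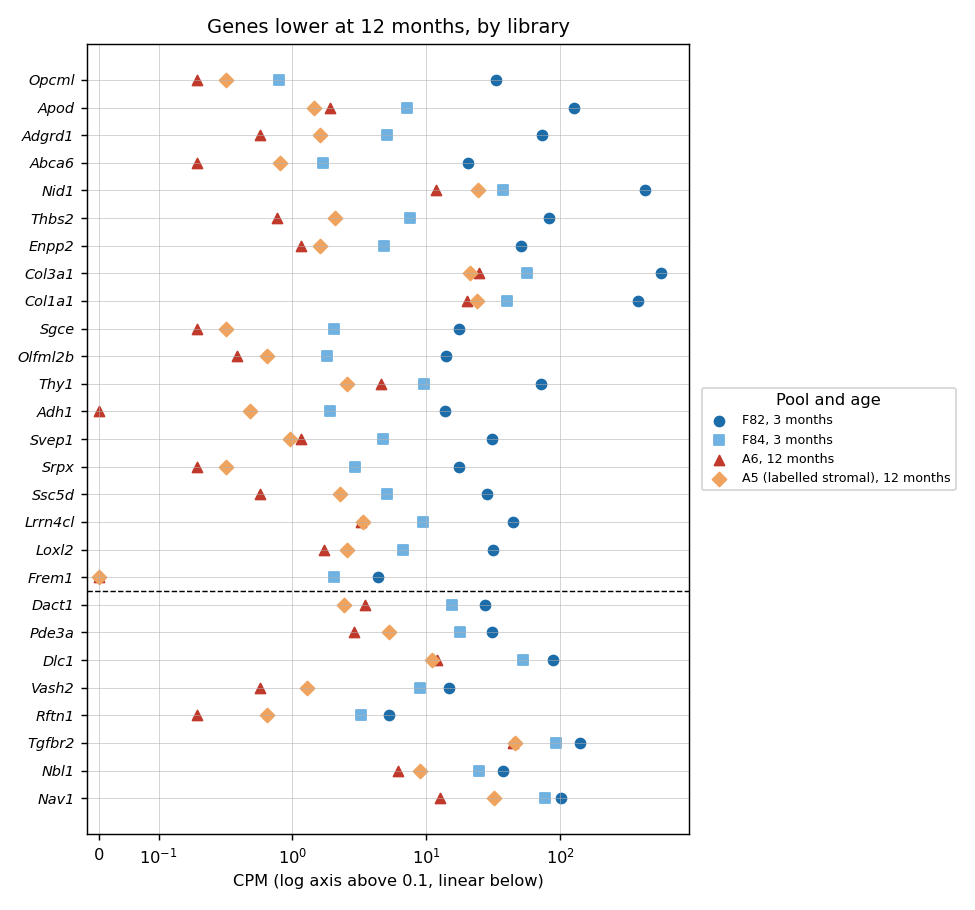
CPM (log axis above 0.1, linear below) of 27 of the 28 genes that passed the threshold, in the 4 null luminal-basal libraries. Above the dashed line are the 19 genes with F82 over 2-fold above F84, and below it genes in which F82 and F84 lie close together and both 12-month libraries are lower, such as Dact1 at 27.38 and 15.48 against 3.46 and 2.41 CPM.

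No gene was called higher at 12 months, so the genes of smallest p that lay wholly higher are given as values. Snx10, a sorting nexin of endosomes, stood at 26.98, 16.95, 76.01 and 82.82 CPM, a log2 difference of 1.86 ± 0.404 (adjusted p = 0.0608). P2rx4, an ATP-gated cation channel, stood at 13.75, 18.53, 51.25 and 40.77 CPM, a log2 difference of 1.51 ± 0.351 (adjusted p = 0.0732). In both genes the 12-month libraries were close together and well above both 3-month libraries. Hdac5, a class IIa histone deacetylase, stood at 45.32, 48.37, 165.1 and 99.04 CPM (adjusted p = 0.0833), and passed with A6 alone (adjusted p = 0.0424). Ifi47, an interferon-inducible GTPase, read 4.32, 4.75, 32.82 and 11.72 CPM, with A6 well above the A5 library, and passed with A6 alone (adjusted p = 0.0283). Zfp58 and Cldn34c1 were higher still in A6 relative to A5, at 30.33 against 2.09 CPM and 38.39 against 1.77 CPM. Zfp58 and Cldn34c1, like Dsg1a and H2-K1, belong to families of near-identical genes among which reads can be split, so their levels are uncertain.

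Gene lists for matrix, signalling and cell state were read against the background of 11.2% wholly higher and 14.6% wholly lower. Of 17 matrix and basement membrane genes tested, 3 were called lower: Col3a1, Nid1 and, as a description only, Col1a1, which the choice of library used. These 3 were among the 7 that lay wholly lower, and 0 lay wholly higher. The median log2 difference of the list was -1.83, and -0.56 without F82. Some members of that list overlapped between ages: Sparc read 1117, 1759, 857.2 and 1399 CPM, and Postn 2144, 1126, 1340 and 1616 CPM. Of 12 transcription factors and partners of epithelial-mesenchymal transition, 2 lay wholly lower and 0 were called, with a median of -2.12 and of -0.02 without F82. Zeb2, a repressor of E-cadherin, read 131.5, 7.12, 4.22 and 8.51 CPM (adjusted p = 0.1011), with F82 alone high. Vim, vimentin, read 532.6, 164.9, 173.7 and 157.3 CPM, again with F82 alone high.

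Of 22 TGF-beta and BMP genes, 1 was called lower (Tgfbr2), 6 lay wholly lower and 3 wholly higher. The ligand Bmp4 read 7.99, 2.37, 0.192 and 0.321 CPM (adjusted p = 0.0608), and the co-receptor Tgfbr3 overlapped at 824.1, 476.3, 519.8 and 693.4 CPM. The type I receptor Tgfbr1 read 216.3, 153.5, 149.1 and 168.4 CPM, which also overlapped. Of 19 Notch genes 5 lay wholly lower, 1 wholly higher and 0 were called. The receptor Notch2 stood at 103.2, 94.14, 67.95 and 60.51 CPM (adjusted p = 0.4526). Of 25 Wnt genes 3 lay wholly higher, 3 wholly lower and 0 were called. Lgr6, a receptor for R-spondins, read 105.6, 152.6, 182 and 200.5 CPM, and Axin2, a target and inhibitor of the pathway, 9.43, 33.57, 8.45 and 5.94 CPM.

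Of 16 genes of antigen presentation by MHC class I and II, 5 lay wholly higher (Psmb8, Psmb9, Tap1, Tap2 and Tapbp), 0 wholly lower and 0 were called. The median log2 difference was 0.53 over 4 libraries, 0.52 with A6 alone and 0.42 without F82. The medians of all genes in these fits were -0.08, -0.38 and 0. Psmb8, an immunoproteasome subunit, read 6.16, 13.34, 45.3 and 16.85 CPM (adjusted p = 0.2335). The class I heavy chain genes overlapped: H2-K1 read 551.6, 687.5, 901.3 and 562.6 CPM, with the highest value in A6. Of the 9 myeloid markers tested 2 also lay wholly higher: Ptprc, the leukocyte surface gene, at 0.655, 0.791, 1.92 and 3.37 CPM, and Cd74, the class II invariant chain, at 25.41, 36.28, 61.8 and 55.22 CPM. Another 2, Itgam and Tyrobp, were at 0 in both 12-month libraries. They were near the floor at 3 months too, at 0.262 and 0.339 CPM for Itgam and 0.131 and 0.113 CPM for Tyrobp. The part of immune cells in the antigen presentation genes was not tested. Of 16 circadian genes 7 lay wholly lower, 1 wholly higher and 0 were called. Tef, a clock output factor, read 24.89, 14.69, 2.88 and 7.06 CPM (adjusted p = 0.1088, and 0.0473 with A6 alone), and Per2 68.77, 233.2, 64.68 and 50.08 CPM (adjusted p = 0.4025).

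Immediate early genes differed between pools of 1 age. Egr1, an early growth response factor, stood at 6977 CPM in F82 and 6522 in A6, against 823.6 in F84 and 1538 in the A5 library labelled stromal. Jun read 1652 and 2087 CPM in F82 and A6, against 688.9 and 229.4 in F84 and A5. For both genes 1 library of each age was high and 1 low. Of the 20 genes of the list, 2 lay wholly higher, 0 wholly lower and 0 were called. Of 22 cell cycle genes, 3 lay wholly lower and 0 were called. Mki67, which marks dividing cells, read 21.35, 133.1, 294.8 and 47.35 CPM (adjusted p = 0.8801), with a spread within each age of over 6-fold. Of 12 secreted factors often measured in senescent cells, 5 lay wholly lower, 0 wholly higher and 0 were called. Cdkn2a, the p16 and p19 gene, was not tested, with 3 counts in F82 and 0 in the other 3.

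**Figure D4:**
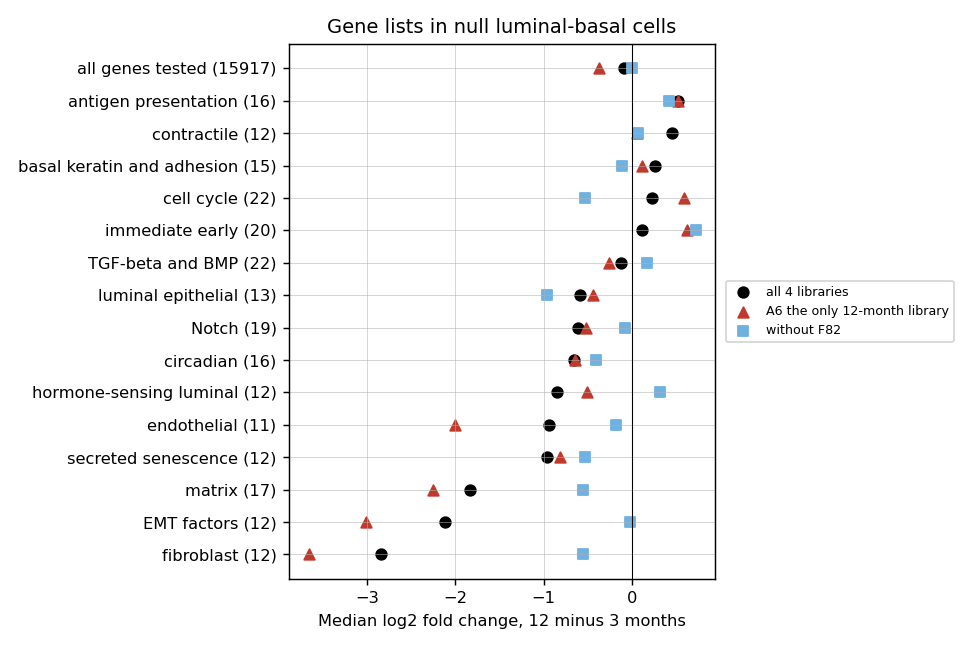
Median log2 difference (12 minus 3 months) over the tested genes of 15 lists and over all genes tested, from all 4 libraries, with A6 as the only 12-month library and without F82. The fibroblast list moves from -2.85 to -0.56 when F82 is left out, while antigen presentation stays between 0.42 and 0.53. All genes have medians of -0.08 over 4 libraries, -0.38 with A6 alone and 0 without F82.

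To ask whether the difference with age belonged to this fraction, it was set against that in null luminal cells of the same pools, by a test of the difference between the 2 changes. Of the genes tested 5 passed (0.0314%), all with the more negative change in luminal-basal cells: Dact1, Dlc1, Igfbp4, Adh1 and Esam. Adh1 and Esam lay outside the rule for named genes and are named because the count is small. In wild-type glands the log2 difference of stroma minus epithelium was 3.44 for Dact1, 3.255 for Dlc1, 3.45 for Igfbp4, 4.31 for Adh1 and -0.11 for Esam. All 5 were also higher in the A5 library labelled luminal-basal than in the one labelled stromal, by 2.63 (Igfbp4) to 6.54 (Adh1) on the log2 scale. The choice between the A5 libraries therefore bears on these calls, and the part of stromal cells in them was not tested. Dact1 stood in null luminal cells at 1.28 and 0.909 CPM at 3 months and at 3.07 (A5) and 3.06 CPM (A6) at 12 months, so it was low there at both ages, and the difference of changes was -4.33 ± 0.688 (adjusted p = 0.0345). Dlc1 stood there at 13.78 and 14.84 CPM at 3 months and at 38.26 (A5) and 16.65 CPM (A6) at 12 months, a difference of -3.55 ± 0.613 (adjusted p = 0.0378). Igfbp4, a binding protein for insulin-like growth factors, read 67.99, 46.11, 13.82 and 29.21 CPM in luminal-basal cells and 9.7, 11.21, 32.62 (A5) and 17.79 CPM (A6) in luminal cells, a difference of -2.67 ± 0.489 (adjusted p = 0.0491). In luminal-basal cells alone Igfbp4 was not called (adjusted p = 0.0833). With the pool as a fixed replicate block, edgeR called 0 genes (600 at an unadjusted p under 0.05), and Dact1 had -4.28 ± 1.025 (adjusted p = 0.9852). That fit holds only the libraries compared, and edgeR on these libraries without the block also called 0 (605). With the pool as a random replicate block limma voom called 0 genes (1215), and without the block it also called 0 (1009). The loss of the 5 calls is thus not shown to come from the block. Without F82 edgeR called 0 genes (866), with an adjusted p of 0.17 for Dact1. In the comparison of ages itself limma voom called 0 genes both with the random replicate block (1544 at an unadjusted p under 0.05) and without it (1535).

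Against wild-type basal cells, 85 genes passed the same kind of test, 74 with the more negative change in null luminal-basal cells (0.465%) and 11 with the more positive (0.0691%). No pool is shared between these groups, and without F82 the count was 31. Dlc1 read 59.08, 38.22, 119.9 and 108.7 CPM in wild-type basal cells (F79, F81, A1, A2), a difference of -3.84 ± 0.600 (adjusted p = 0.0132). Pde3a read 6.12, 13.48, 23.24 and 32.54 CPM there, a difference of -4.04 ± 0.691 (adjusted p = 0.0169). For both genes every 12-month library of wild-type basal cells was above every 3-month one. Rgcc, named as a regulator of the cell cycle, read 7.86, 4.07, 1.92 and 0.482 CPM in null luminal-basal cells and 6.12, 3.95, 25.68 and 23.17 CPM in wild-type basal cells, a difference of -4.62 ± 0.789 (adjusted p = 0.0169). The wild-type basal libraries themselves differed between ages. Their median log2 difference was 2.45 for secretory luminal genes, 1.18 for luminal epithelial and 1.39 for endothelial genes. It was -1.25 for contractile genes and -0.003 for all genes. The 85 differences hold the changes of both fractions, and the part of each was not tested.

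In the other direction, P2rx4 read 22.37, 33.07, 9.48 and 11.78 CPM in wild-type basal cells, and the difference of changes was 2.89 ± 0.502 (adjusted p = 0.0169). Snx10 read 42.45, 85.72, 32.1 and 18.21 CPM there, a difference of 3.22 ± 0.570 (adjusted p = 0.0169). Hdac5 read 69.79, 84.05, 28.43 and 33.35 CPM there, a difference of 2.81 ± 0.508 (adjusted p = 0.0169). Without F82 the adjusted p was 0.0590 for P2rx4 and 0.0614 for Hdac5, so neither was called, and Snx10 was (0.0305). These 3 genes had the 12-month libraries lower in wild-type basal cells and higher in null luminal-basal cells. Sema4c, a membrane semaphorin, read 30, 8.48, 39.15 and 73.51 CPM in null luminal-basal cells and 67.11, 68.95, 23.85 and 21.16 CPM in wild-type basal cells, a difference of 3.15 ± 0.619 (adjusted p = 0.0268). Bmp4, Tgfbr2, Dact1 and Tef also passed on the negative side, with differences of -6.09, -1.75, -3.00 and -3.19. In wild-type basal cells Dact1 overlapped between ages, at 21.99, 15.16, 22.32 and 18.21 CPM.

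**Figure D5:**
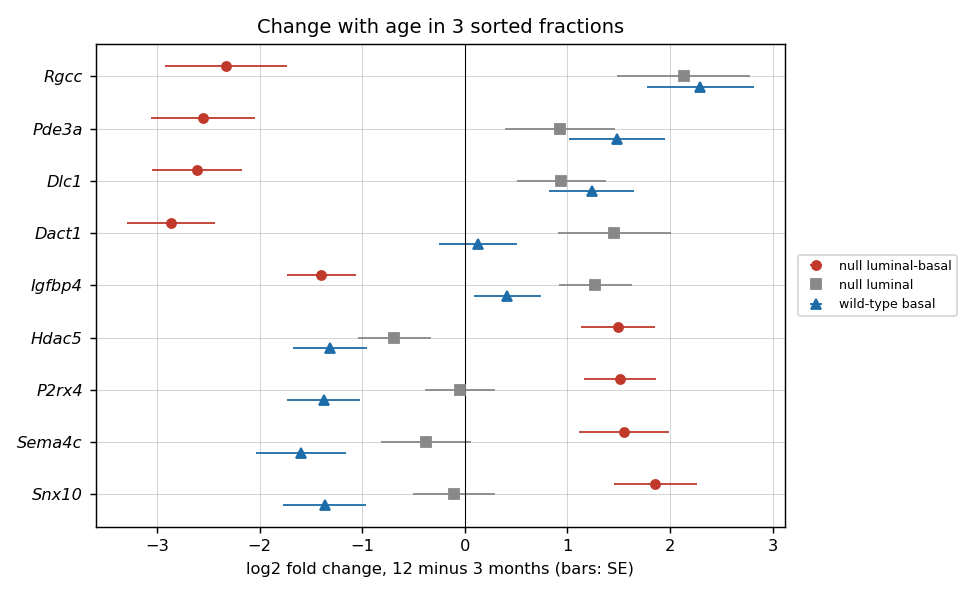
Log2 difference, 12 minus 3 months, with its SE for 9 genes that passed a test of the difference of changes, in null luminal-basal cells (2 pools per age), null luminal cells and wild-type basal cells. Rgcc, Pde3a and Dlc1 lie to the left in null luminal-basal cells and to the right in wild-type basal cells, and Hdac5, P2rx4, Sema4c and Snx10 lie the other way.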

How the data were processed

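Cells sorted on EpCAM and CD49f gave RNA that, per the labels' protocols, went through NuGEN Ovation V2 amplification and TruSeq Nano library construction. This amplification can distort levels between libraries of different quality. Per the submitters' processing notes the authors aligned reads to GRCm38 with TopHat2 2.0.13 and counted them per gene with HTSeq. Its version and its strand and multi-mapping settings: not given in the sources used here. Deposited counts are whole numbers for 45706 genes in 26 libraries, and 45143 genes matched GENCODE vM21.

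Libraries were grouped by their labels into 13 groups of 2, except that the A5 stromal and luminal-basal libraries were exchanged. Genes were filtered with filterByExpr (minimum count 10, minimum total 15; 15917 kept), scaled by TMM and fitted with edgeR 4.0.16 (R 4.3.3) by the robust quasi-likelihood test with 1 coefficient per group over all 26 libraries. Calls needed an adjusted p (Benjamini-Hochberg) below 0.05. CPM are counts over the kept library size times its TMM factor. DESeq2 1.42.0 and limma 3.58.1 gave alternatives, and the script was tested on simulated data. Same-named luminal-basal and luminal libraries come from 1 pool of 3 mice, so they are paired by the labels. The deviations of the paired libraries correlated at 0.216 (3 months) and 0.059 (12 months).

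Named genes were the 10 largest falls and rises among called genes whose libraries did not overlap and whose higher age averaged 10 CPM or more (where fewer were called, those of smallest p), up to 4 members of each list described, and 4 genes per direction of each difference of changes; other genes of the 28 and of the epidermal group were named after their values were seen. The compared members, gene lists and rules were chosen with earlier results of these data known. Some genes that met these rules are not reported here. Promoters were taken from RefSeq, GRCm38.p6. Counting intervals at 0.95 and floors of 3 counts cover counting error only, since reads carry no molecular identifiers. Alternatives were other scalings and tools, no filter, only the libraries compared, a replicate block, the labels as deposited and each library left out.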

Additional observations from a re-analysis of the deposited data

Results flagged for a closer look

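Changes with age that differed between sorted fractions by a test of the difference itself are listed here. Against null luminal cells 5 genes differed, among them Dact1 (-4.33), Dlc1 (-3.55) and Igfbp4 (-2.67), as log2 change in luminal-basal minus luminal cells. These calls were lost (0 genes) with the pool as a replicate block, in limma voom with or without the block, and without F82. Against wild-type basal cells 85 genes differed, and 31 without F82. Negative differences among the named genes were those of Rgcc (-4.62), Pde3a (-4.04) and Dlc1 (-3.84), and the positive ones those of Snx10 (3.22), Sema4c (3.15), P2rx4 (2.89) and Hdac5 (2.81). With 2 libraries per group no group was large enough for a test of single outlying libraries.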

How the results depend on the processing

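Counts of called genes moved with the processing, and the cause was not tested. For the comparison of ages (28 genes), scaling by RLE gave 20, no low-count filter 505 (82 higher, 423 lower), DESeq2 289, A6 as the only 12-month library 251, a fit of only the libraries compared 0 (336 at an unadjusted p under 0.05), the A5 labels as deposited 0 (1202) and limma voom 0 with the replicate block (1544) and 0 without it (1535). For the difference from null luminal cells (5 genes), RLE gave 0 (1257), no filter 399, DESeq2 144, A6 alone 9, only the libraries compared 0 (605), the labels as deposited 0 (562) the replicate block 0 in limma voom (1215) and 0 in edgeR (600), and limma voom without the block 0 (1009). For the difference from wild-type basal cells (85 genes), RLE gave 75, A6 alone 59 and limma voom 86 with and 80 without the replicate block, while no filter gave 766, DESeq2 532, only the libraries compared 0 (1448) and the labels as deposited 0 (915). Leaving out each luminal-basal library in turn gave 0 to 370, 0 to 292 and 31 to 536 genes. Without F82 the counts were 0, 0 and 31. With the labels as deposited 25 of the 28 genes turned higher on the log2 scale: Abca6 1.51, Adgrd1 1.54, Adh1 2.28, Apod 2.21, Col1a1 1.56, Col3a1 1.36, Dact1 0.33, Dlc1 1.17, Enpp2 2.02, Frem1 1.51, Loxl2 1.51, Lrrn4cl 1.30, Nav1 0.58, Nid1 1.44, Olfml2b 1.27, Opcml 1.47, Pde3a 1.05, Rftn1 1.34, Sgce 1.64, Srpx 1.86, Ssc5d 1.40, Svep1 1.44, Tgfbr2 0.74, Thbs2 1.51, Thy1 1.27. The change of Dlc1 relative to luminal cells also turned, to 0.23. No call for a named gene turned under the other alternatives. All 28 stayed called with DESeq2, with no filter and without F84, and 20 with RLE. Limma voom without the block was added after seeing the data. With 2 libraries per group, 1 amplified library can decide a call.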
